A study of Mus musculus with 8 samples.

Results

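Of the 35 genes described here, nearly all act in the prophase of meiosis I, and Tex14 in the bridges between germ cells. The genes were taken as a fixed list of symbols. A gene counted as found where the gene lists of the deposited peak table held its symbol exactly. This was so for 31 of the 35 among 21490 genes in all. Peaks of all libraries that overlapped were merged into regions, and the 31 genes held 567 of 328733 peaks in 117 of 87144 regions. The symbols Rec114, Rnf212, Majin and Terb1 were not in the gene lists, and the peaks at their annotated starts are given separately below.

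Open chromatin was measured by ATAC-seq, in which a transposase cuts accessible DNA, in germ cells sorted by eGFP from the testes of PIWIL2-eGFP mice. All mice, the 0 h mice included, received WIN 18,446, an inhibitor of retinoic acid (RA) synthesis, for 7 days from 2 dpp. Mice of the 0 h group were collected without RA, and the other groups were injected with RA at 9 dpp and collected 18, 48 or 120 h later. Each timepoint had 2 libraries, each from the testes of 1 mouse. The strain was given in the labels as derived from C57BL/6 x 129s4/SvJae and in the study's methods as C57BL/6 x SJL. The eGFP is driven by the Piwil2 promoter, which is active in germ cells from before birth to early spermatids, so the sort takes germ cells of any stage, and the stage of the cells rests on the WIN 18,446 and RA treatment. Animals of the later groups were also older, so time after RA and age cannot be told apart.

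During meiotic prophase, homologous chromosomes are cut, paired, joined and recombined. A meiosis-specific cohesin holds the chromatin loops along an axis, SPO11 makes DNA breaks at sites marked by PRDM9, DMC1 carries out strand exchange, MutS and MutL proteins turn a part of the repair sites into crossovers, and the synaptonemal complex zips the homologues together. In male mice these events follow the spermatogonial stages that were sampled here, and many of the genes are kept silent in somatic cells.

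Signs of cell identity were checked first. Start regions of the germ cell markers Ddx4, Dazl, Piwil2, Sohlh1 and Mael had a peak in all 8 libraries, which is 5 of 8 germ cell markers. Of the others, Nanos3 had a start peak at 0 h only, of 191 and 107. Tdrd1 had 148 and 231 at 0 h and later only 66 in 1 of the 48 h libraries. Dppa3 had 70 in 1 of the 0 h libraries and 96 and 45 at 120 h. None of the 4 Leydig cell markers in the table had a start peak in any library. All 6 Sertoli cell markers had a start peak in both 0 h libraries, with summed summit values of 615 and 802 (the highest start peak of each marker), and 2 or 3 of the 6 had one in the later libraries, with sums from 105 to 246. Wt1, a Sertoli cell transcription factor, had a start peak in all 8 libraries, Sox9 in 6, with 83 and 64 at 120 h, and Dhh and Cldn11 in the 0 h libraries only. The 2 peritubular myoid markers summed to 354 and 408 at 0 h and to between 86 and 240 later. They differed at 120 h, where Myh11 had 93 in 1 library (257 and 310 at 0 h) and Acta2 had 147 and 86 (97 and 98 at 0 h). Of the 4 blood and endothelial markers Cd68 had a start peak at 0 h only, of 172 and 166. The germ cell sums were 2417 and 2818 at 0 h, between 848 and 1276 at 18 and 48 h, and 1900 and 1470 at 120 h. Libraries differed in peak number as well, the 0 h libraries holding 72215 and 69089 and the 6 later ones 24643 to 39551. The part of these differences in the results on meiotic prophase genes was not tested.

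Promoter sequences are shown for 4 genes whose start regions stood relatively high at 120 h, together with the start region of Mei1, which lacked a peak in 1 library each of 0 and 18 h. The RefSeq promoter table (GRCm38.p6, 250 bases before to 50 after each start) held 29 of the 35 genes and not Tex11, Tex15, Spo11, Meiob, Majin or Mybl1. For 22 of the 29 the promoter overlapped the start region found by ATAC-seq. Capitals mark GCGGGA or its reverse complement, the letters that the repressor E2F6 binds, and CACGTG, the E box bound by MYC, MAX and MGA. The promoters lie at chr11:87404815-87405114 (plus strand), chr5:138280259-138280558 (plus), chr15:85131908-85132207 (minus) and chr10:88459337-88459636 (plus). The Mei1 sequence is the middle of its start region, chr15:82070191-82070490 (plus), read from the same genome build, since the 1 RefSeq promoter of Mei1 lies 12136 bp further downstream.
Tex14: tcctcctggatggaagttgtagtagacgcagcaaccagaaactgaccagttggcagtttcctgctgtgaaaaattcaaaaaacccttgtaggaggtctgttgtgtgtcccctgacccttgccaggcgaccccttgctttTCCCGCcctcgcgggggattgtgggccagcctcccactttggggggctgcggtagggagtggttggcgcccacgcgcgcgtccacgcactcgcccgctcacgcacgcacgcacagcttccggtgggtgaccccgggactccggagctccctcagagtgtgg
Stag3: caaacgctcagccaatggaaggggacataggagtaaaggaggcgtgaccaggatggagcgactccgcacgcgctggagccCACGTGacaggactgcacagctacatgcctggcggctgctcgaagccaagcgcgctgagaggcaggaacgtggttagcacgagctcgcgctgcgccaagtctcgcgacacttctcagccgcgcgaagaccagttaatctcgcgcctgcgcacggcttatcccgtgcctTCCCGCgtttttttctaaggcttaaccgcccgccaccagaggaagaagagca
Smc1b: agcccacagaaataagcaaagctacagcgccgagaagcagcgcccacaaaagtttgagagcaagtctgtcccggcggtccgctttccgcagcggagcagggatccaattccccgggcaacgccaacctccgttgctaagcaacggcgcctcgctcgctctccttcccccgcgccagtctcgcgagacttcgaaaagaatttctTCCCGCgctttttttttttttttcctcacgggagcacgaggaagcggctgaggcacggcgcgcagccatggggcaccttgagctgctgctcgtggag
Sycp3: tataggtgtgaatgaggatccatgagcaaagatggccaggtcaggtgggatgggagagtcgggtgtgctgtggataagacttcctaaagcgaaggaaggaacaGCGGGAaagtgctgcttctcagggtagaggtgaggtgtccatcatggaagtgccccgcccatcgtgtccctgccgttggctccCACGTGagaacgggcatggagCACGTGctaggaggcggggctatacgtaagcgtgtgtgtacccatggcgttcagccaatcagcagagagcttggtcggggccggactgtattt
Mei1: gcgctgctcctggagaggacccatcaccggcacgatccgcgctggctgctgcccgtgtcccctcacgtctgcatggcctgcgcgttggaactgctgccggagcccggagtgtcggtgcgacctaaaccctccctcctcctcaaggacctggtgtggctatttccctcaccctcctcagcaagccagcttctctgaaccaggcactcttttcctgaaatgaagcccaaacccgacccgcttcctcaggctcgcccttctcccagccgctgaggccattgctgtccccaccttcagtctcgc

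The GCGGGA match of Stag3 began 2 bases before the start, that of Smc1b 47 bases, that of Tex14 111 bases and that of Sycp3 147 bases before it. Sycp3 also held 2 E boxes, 64 and 43 bases before the start, and Stag3 held 1 at 170 bases. Neither set of letters was in the Mei1 window. GCGGGA was also in the promoters of Rec8, Msh5 and Psmc3ip, whose starts were relatively high at 120 h. Among genes whose starts were lower at 120 h as deposited, Spata22, Hfm1 and Tex12 held it and Hormad2, Mlh3 and Msh4 did not. A link between these letters and height was not tested. On either strand, GCGGGA was in 19 of the 29 promoters (65.5%) against 20.0% of all 32851 promoters, and CACGTG in 8 of 29 (27.6%) against 7.15%. The promoters of the 29 genes were also richer in CpG, with a median observed over expected ratio of 0.713 against 0.384, and GCGGGA holds a CpG, so the part of base composition in these shares was not tested. The letters CCTCAG, the core of the STRA8 and MEIOSIN type site, were in 12 of 29 (41.4%) against 26.8%, and AACTG, the MYB type core, in 7 of 29 (24.1%) against 44.8%. Neither TGACGTCA, the cAMP response element, nor a retinoic acid response element of a pair of AGGTCA letters with a spacer of 5 bases was in any of the 29 windows, against 1.79% and 0.00913% of all promoters. The sets behind these shares were not chosen alike. A gene here with assigned regions gave 1 promoter, the one nearest its start region or, without one, its closest region. All promoters held every entry, those of genes without an open start included. A match of letters is a description of the sequence and not a binding site. Of the 28 start regions, 26 (92.9%) overlapped a CpG island, against 70.6% of all start regions, and those of Rec8 and Hormad2 did not. The shares lay closer for starts called in each of the 8 libraries, at 92.3% (24 of 26) against 88.7% (7954 of 8971).

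Accessible chromatin was found at the start of nearly all meiotic prophase genes already at 0 h. A timepoint was counted where a peak was called in each of its 2 libraries. All 30 genes with any timepoint had a peak at all 4 timepoints, where 72.8% of all genes did. A start peak, with its summit within 1000 bp of the start in the deposited distances, was present in all 8 libraries for 26 of the 30 genes (86.7%), where 48.5% of all genes had one. The genes were chosen with results of these data known and no test was made of these shares.

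The exceptions were few. Mei1, a factor of break formation, had a start region with a summit value of 59 in 1 of the 0 h libraries and no peak in the other, and likewise 62 in 1 of the 18 h libraries and no peak in the other. It then had 62 and 52 (48 h) and 55 and 52 (120 h). The heights of Mei1 were therefore alike wherever a peak was called, and its start region was the only region of these genes that counted at 48 and 120 h but not at 0 or 18 h. Spo11, the enzyme that makes meiotic DNA breaks, had 80 and 125 at its start before RA, no peak in either library at 18 h, then 52 and 61 (48 h) and 85 and 74 (120 h). A second Spo11 region, 2306 bp upstream of that start and 388 bp from the nearest GENCODE start of the gene, had a peak in all 8 libraries. Prdm9, the histone methyltransferase that marks break sites, had no summit within the 1000 bp, but its region at 1093 bp overlapped the GENCODE start and had values of 447 and 627 before RA, then 190 and 234 (18 h), 204 and 222 (48 h) and 463 and 391 (120 h). Rad21l, a kleisin subunit of meiotic cohesin, had its nearest region 2155 bp upstream, with 348 and 485 before RA, then 147 and 208 (18 h), 124 and 167 (48 h) and 262 and 174 (120 h), and no peak at the GENCODE start itself.

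For 5 genes the gene lists did not give the start. The table assigned to Tex15, which acts in recombination in male meiosis, 1 downstream peak of 38 in 1 of the 0 h libraries. Peaks to which it gave no gene lay at the GENCODE start of Tex15 in all 8 libraries, at chr8:33516188-33517918, with summit values of 116 and 245 before RA, then 75 and 126 (18 h), 79 and 98 (48 h) and 174 and 157 (120 h). Read by position, Tex15 had a start peak in every library, and its absence from the 30 followed from the deposited assignment of genes. Peaks at the GENCODE starts were likewise found for Terb1, of the telomere attachment complex, in all 8 libraries, with 167 and 159 before RA, then 79 and 98 (18 h), 86 and 96 (48 h) and 127 and 73 (120 h). Rnf212, a factor of crossover designation, had 146 and 179 before RA, then 64 and 80 (18 h), 45 and 65 (48 h) and 66 and 65 (120 h), so its 120 h values stayed with those at 18 and 48 h. Rec114, a partner of MEI4 in break formation, had 91 and 87 at 0 h and 66 and 32 at 120 h, but a peak in 1 library only at 18 h (30) and at 48 h (38). Majin, which anchors telomeres to the nuclear envelope, had 51 and 35 at 0 h, no peak at 18 or 48 h and 43 in 1 library at 120 h, the nearest of these genes to a start seen at 0 h only.

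**Figure D1:**
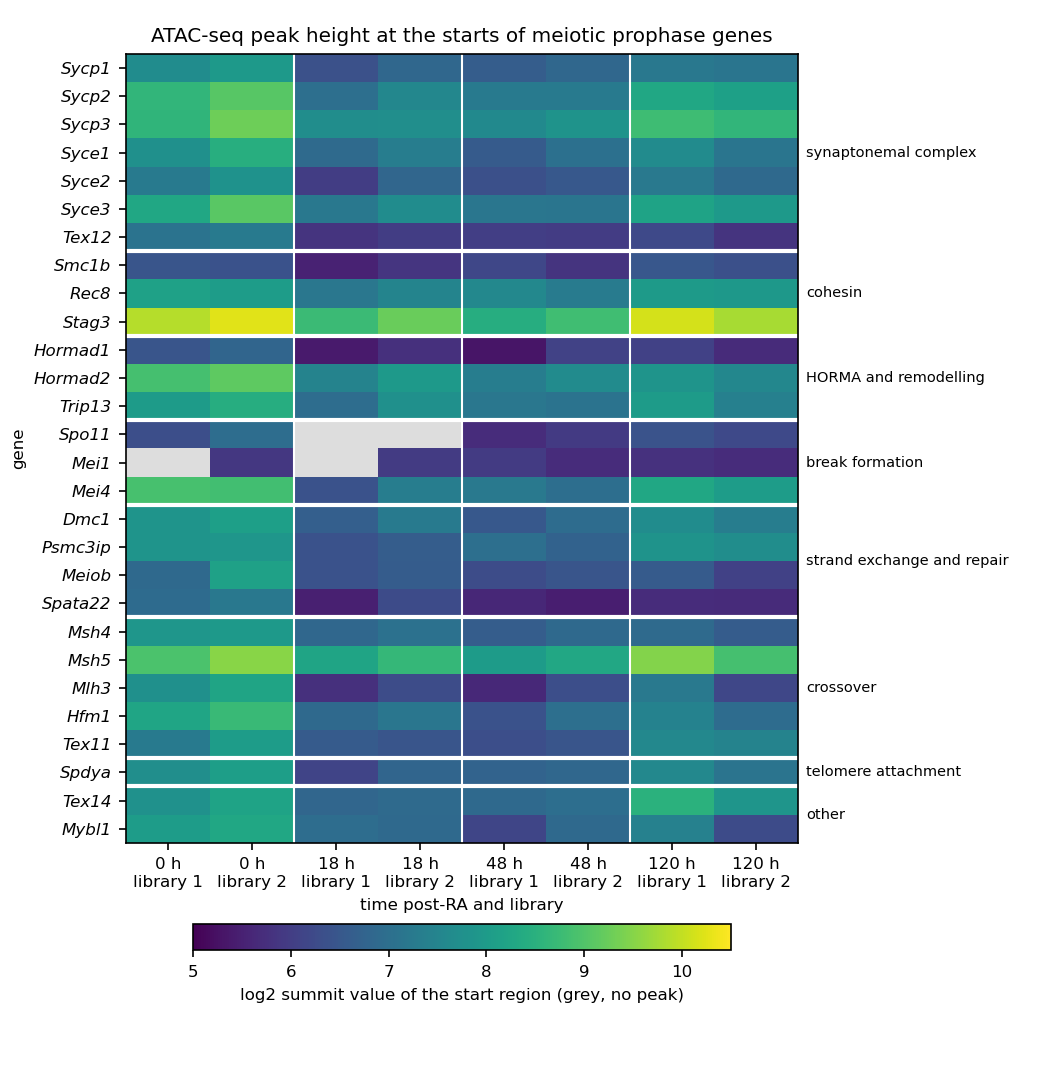
Height of the start region of the 28 genes that have one, as log2 of the summit value (tag coverage after the authors' equal reduction of libraries), with genes in rows by role and the 8 libraries in columns. Both 0 h libraries are brighter than the 18 and 48 h libraries in the 26 rows without grey, a separation that was not counted over all start regions. Some rows such as Stag3, Msh5 and Tex14 brighten again at 120 h, and the grey cells are the missing peaks of Mei1 and Spo11.

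The height of the peaks fell at 18 and 48 h at almost every gene. Height was the log2 of the summit value, the highest tag coverage in a peak, and was tested with limma across the 15536 regions called in every library, of which 48 belonged to meiotic prophase genes, 26 of them start regions. At 18 h against 0 h, 47 of the 48 were lower (adjusted p under 0.05), as were 92.3% of all regions, and the median change was -1.24 on the log2 scale against -1.23 over all regions. At 48 h, 45 of 48 were lower, as were 93.3% of all regions, with medians of -1.31 and -1.36. The change was below 0 in all 26 start regions of these genes at both times. Among all 8971 start regions it was below 0 in 8965 at 18 h and 8963 at 48 h. The region that did not pass at 18 h was the start of Smc1b (-0.72, SE 0.37, adjusted p = 0.0571). These counts fell to 23 at 18 h and 29 at 48 h without library 2 of 0 h, and the 18 h count to 24 without library 1 of 18 h. Fewer cells with an open region and less opening per cell cannot be told apart in such libraries. As deposited, limma also gave all regions the same SE of 0.37. A shift shared by a whole library can therefore make the as-deposited p-values, here and below, too small.

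The deepest fall of the 48 regions at 18 h was at an intronic region of Tex14 that holds the start of Rnu1a1, with 463 and 287 before RA, then 64 and 87 (18 h), 92 and 91 (48 h) and 194 and 104 (120 h), a change of -2.29 (SE 0.37, adjusted p = 4.2e-07). Among the start regions the deepest falls at 18 h were at Mei4 and Mlh3. Mei4, another break formation factor, had 476 and 460 at 0 h and 84 and 162 at 18 h, a change of -2.0 (SE 0.37, adjusted p = 6.05e-06), and rose again to 312 and 264 at 120 h, which was higher than at 48 h (1.07, SE 0.37, adjusted p = 0.0267). Mlh3, a MutL protein of crossover resolution, had 217 and 295 before RA, then 54 and 78 (18 h), 50 and 80 (48 h) and 149 and 72 (120 h), with a change of -1.96 at 18 h (SE 0.37, adjusted p = 8.93e-06). The 7 synaptonemal complex genes were lower at both times, by between -1.58 and -0.99 at 18 h and between -1.58 and -1.08 at 48 h. Of the 3 cohesin genes with a tested start, 2 were lower at 18 h and 1 at 48 h, the change at 48 h being -0.41 for Smc1b, -0.66 for Rec8 and -1.44 for Stag3. Between 18 and 48 h none of the 48 regions passed the limma threshold in either direction, and 1 of all 15536 regions did. None of the 48 had an unadjusted p under 0.05, against 255 lower and 14 higher over all regions.

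At 120 h some starts were again near their 0 h heights and others were lower, in shares near those of all gene starts. As deposited, 20 of the 48 regions were lower than at 0 h, where 44.8% of all regions were, and 8 of the 26 start regions were, where 31.8% of all gene start regions were. None of the 48 was called higher than at 0 h in the limma fit, where 0.882% of all regions were. None was higher at an unadjusted p under 0.05 either, against 174 of all 15536 regions. The 8 lower starts were those of Spata22, Mybl1, Hormad2, Hfm1, Mlh3, Meiob, Msh4 and Tex12. Against 48 h, 10 of the 48 regions were higher (23.7% of all regions) and 7 of the 26 starts (32.7% of all start regions), namely Stag3, Tex14, Tex11, Mei4, Msh5, Sycp3 and Sycp2. Without library 2 of 120 h, which had the fewest peaks, 11 regions in place of 20 were lower than at 0 h and 22 in place of 10 were higher than at 48 h, while without library 1 of 120 h or either 48 h library none was higher than at 48 h. Without library 2 of 0 h, 10 were lower at 120 h.

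**Figure D2:**
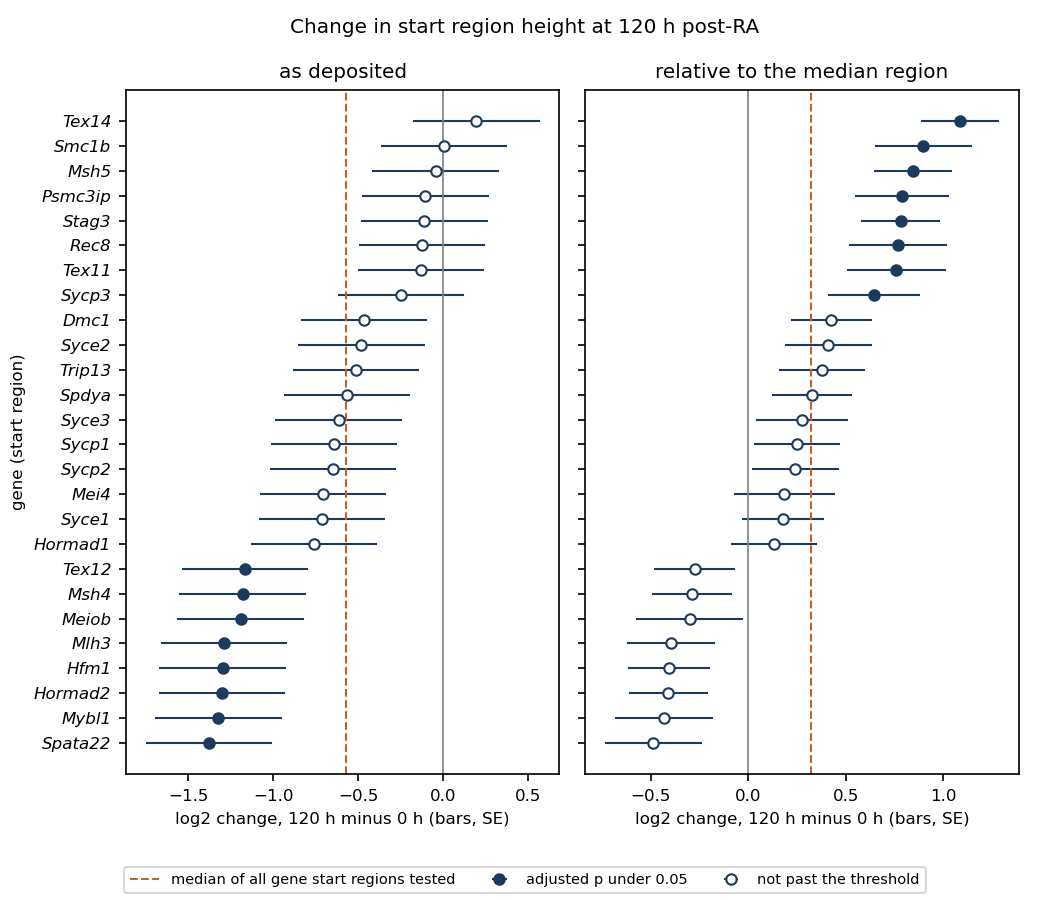
Change in log2 height of the 26 tested start regions at 120 h against 0 h, as deposited (left) and after each library was centred on its median region (right), with SE bars, filled points for adjusted p under 0.05 in limma, and dashed lines at the median of all gene start regions tested (-0.57 and 0.32). Centring adds the same amount to every region, so the order of the genes is the same in both panels, with Tex14, Smc1b and Msh5 at the top and Spata22, Mybl1 and Hormad2 at the bottom, but the called genes are the lowest on the left and the highest on the right.

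Since nearly all regions fell, the genes were also set against the median region, by centring each library on its median log2 height. On this scale no region of these genes differed at 18 h in limma (1.25% of all regions were higher and 0.225% lower). At an unadjusted p under 0.05, 3 of the 48 were higher and 4 lower, where 1289 and 776 of all 15536 regions were. At 48 h, 2 of the 48 regions were higher (3.26% of all regions), and 1 of these was among the 26 starts (1.13% of all start regions). At 120 h, 11 of 48 were higher (23.0% of all regions) and 3 lower (15.8%). Of the starts, 8 of 26 were higher (29.6% of all start regions) and 0 lower (8.42%). None of the 26 was lower at an unadjusted p under 0.05, where 974 of all 8971 start regions were. The median was 0.26 for the 26 starts against 0.32 for all start regions. The share of starts that were relatively high was therefore near that of gene starts in general, and the genes differed among themselves in the values given next. The 8 were 3 of 3 tested cohesin genes, 2 of 5 crossover genes, 1 of 7 synaptonemal complex genes, 1 of 4 strand exchange genes and Tex14.

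Among the cohesin genes, Stag3, the meiotic STAG subunit, had the highest start peak of all 28, with 943 and 1225 before RA, then 432 and 604 (18 h), 346 and 452 (48 h) and 1125 and 882 (120 h). Of the 120 h values 1 lay between those of 0 h and the other just below both, and both were above all 4 values at 18 and 48 h. Relative to the median region Stag3 was higher at 120 h than at 0 h by 0.78 (SE 0.20, adjusted p = 0.00986) and than at 48 h by 0.83 (SE 0.20, adjusted p = 0.0235). The region also holds the start of Gpc2, so the peak cannot be given to either gene alone.

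Smc1b, the meiotic SMC1 subunit of cohesin, had a small start peak, with 87 and 83 before RA, then 46 and 58 (18 h), 72 and 57 (48 h) and 90 and 81 (120 h). It was relatively high at 48 h by 0.99 (SE 0.25, adjusted p = 0.0378) and at 120 h by 0.90 (SE 0.25, adjusted p = 0.0133). Smc1b was the start that was relatively high at 48 h, and it shares its region with the start of Ribc2. Rec8, the meiotic kleisin, had 282 and 262 before RA, then 144 and 179 (18 h), 189 and 156 (48 h) and 255 and 244 (120 h). Both 120 h values of Rec8 were just below those of 0 h, a relative change of 0.77 (SE 0.25, adjusted p = 0.0288).

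Tex14, which keeps the intercellular bridges between germ cells open, had the largest relative change of the starts. Its values were 221 and 293 before RA, then 113 and 120 (18 h), 117 and 127 (48 h) and 363 and 234 (120 h). The relative change was 1.09 against 0 h (SE 0.20, adjusted p = 0.00172) and 0.76 against 48 h (SE 0.20, adjusted p = 0.0287). Tex14 and Stag3 were the 2 of 48 regions, both starts, that were relatively high against 48 h, where 9.47% of all regions and 13.1% of all start regions were. The Tex14 start region lies 457 bp upstream and also holds the start of Rad51c, so the peak cannot be given to either gene alone.

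Of the crossover genes, Msh5, a MutS protein that holds recombination intermediates, had 492 and 735 before RA, then 295 and 405 (18 h), 260 and 315 (48 h) and 719 and 473 (120 h), a relative change of 0.85 (SE 0.20, adjusted p = 0.00644). Its partner Msh4 went the other way in sign, with 237 and 250 before RA, then 114 and 133 (18 h), 99 and 117 (48 h) and 119 and 97 (120 h), and a relative change of -0.29 (SE 0.21, adjusted p = 0.275). The 2 proteins work as a heterodimer, and the difference between their genes was not tested. Tex11, an X-linked gene for chromosome synapsis and crossover formation, had 152 and 262 before RA, then 96 and 88 (18 h), 80 and 88 (48 h) and 190 and 175 (120 h), a relative change of 0.76 (SE 0.25, adjusted p = 0.0308). Hfm1, a helicase needed for crossovers, stayed low, with 301 and 427 before RA, then 118 and 143 (18 h), 83 and 129 (48 h) and 173 and 123 (120 h), a relative change of -0.41 (SE 0.21, adjusted p = 0.138). The relative change of Mlh3 was -0.40 (SE 0.23, adjusted p = 0.173).

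Of the strand exchange and repair genes, Psmc3ip, an accessory factor of DMC1, had 230 and 236 before RA, then 84 and 99 (18 h), 129 and 106 (48 h) and 227 and 207 (120 h), so that it too came back to just below its 0 h values (0.79, SE 0.24, adjusted p = 0.0214). Dmc1 itself, the meiotic recombinase, had 229 and 275 at 0 h and 204 and 162 at 120 h, with a relative change of 0.43 (SE 0.21) that did not pass (adjusted p = 0.117). Meiob and Spata22, whose proteins form a complex on single-stranded DNA, both stayed low. Meiob had 117 and 284 before RA, then 84 and 97 (18 h), 78 and 87 (48 h) and 95 and 67 (120 h). Spata22 had 121 and 148 before RA, then 45 and 76 (18 h), 49 and 44 (48 h) and 52 and 51 (120 h), the lowest relative change of the starts (-0.49, SE 0.25, adjusted p = 0.132).

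Of the 7 synaptonemal complex genes Sycp3, a component of the lateral element, was the one that was relatively high, with 389 and 625 before RA, then 207 and 210 (18 h), 194 and 228 (48 h) and 440 and 393 (120 h) (0.64, SE 0.23, adjusted p = 0.0426). The relative changes of the other 6, Sycp1, Sycp2, Syce1, Syce2, Syce3 and Tex12, lay between -0.28 and 0.41. Tex12, of the central element, was the one of the 7 that was lower as deposited at 120 h (-1.17, SE 0.37, adjusted p = 0.00577).

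Of the HORMA domain genes, Hormad2, which marks unsynapsed axes, had 467 and 564 before RA, then 177 and 251 (18 h), 161 and 200 (48 h) and 231 and 188 (120 h), a relative change of -0.41 (SE 0.20, adjusted p = 0.122). Hormad1 (0.13) and Trip13, the ATPase that removes HORMA proteins from the axis (0.38), did not pass either. The start of Trip13 is shared with Brd9. Mybl1, the transcription factor of pachytene genes, had 262 and 312 before RA, then 125 and 117 (18 h), 71 and 118 (48 h) and 172 and 76 (120 h) (-0.43, SE 0.25, adjusted p = 0.181). Spdya, which activates CDK2 at telomeres, had a relative change of 0.33 (SE 0.21, adjusted p = 0.218).

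The relative calls at 120 h were sensitive to single libraries. The count of 8 starts became 4 and 5 without library 1 or 2 of 0 h and 2 without library 2 of 120 h. Tex14 was called under all 11 alternatives tried, and each of the other 7 lost its call under 3 or more of the 11.

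**Figure D3:**
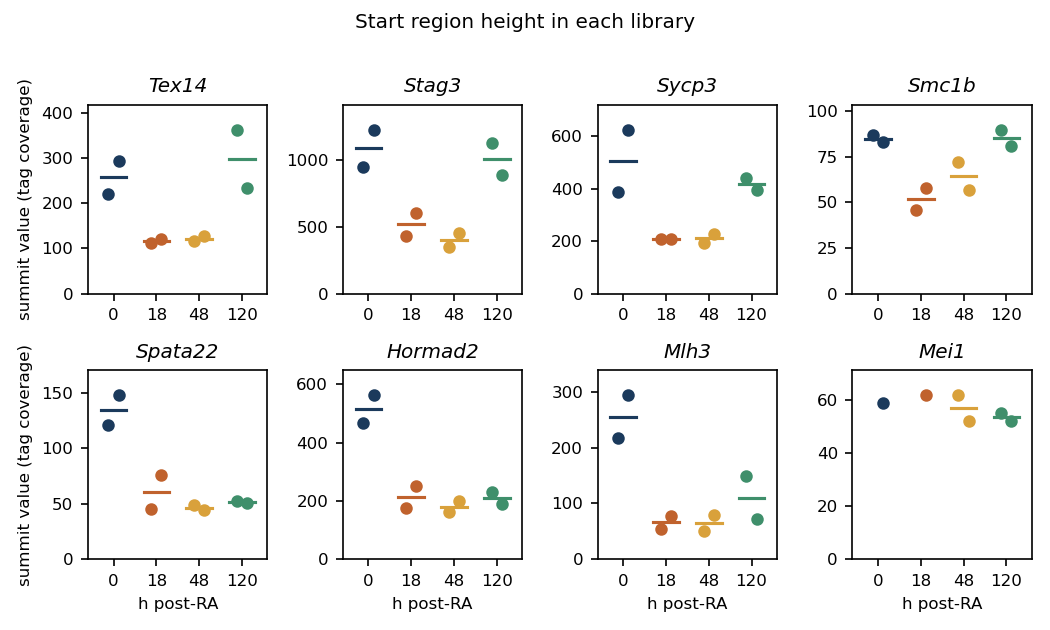
Summit value (tag coverage) of the start region in each library by hours post-RA for 8 genes, with points for libraries and lines for the mean of both libraries where both had a peak. Tex14, Stag3, Sycp3 and Smc1b (top) were back among or near their 0 h values at 120 h, Spata22, Hormad2 and Mlh3 (bottom) stayed below both 0 h values, and Mei1 had 52 to 62 wherever it had a peak.

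Regions away from the starts were then counted by timepoint. Of the 117 regions, 28 were the start regions of these genes, 2 others lay within 1000 bp of the starts of Sycp3 and Spdya, 25 were at the start of another gene and 62 at none, and 34 of the 117 counted at no timepoint because no timepoint had a peak in both libraries. Of the 83 others, 48 (57.8%) counted at all 4 timepoints, where 25.3% of all regions did, and 20 (24.1%) at 0 h only, where 49.8% did. Away from all gene starts, 17 of 31 regions (54.8%) were at 0 h only, near the 59.0% of all such regions, so the lower share over all 83 went with the many starts among them. The 0 h-only count was 4 when an equal number of the highest peaks was taken from each library, and 38 without library 2 of 0 h. The summed Sertoli, myoid and blood marker peaks given above were also highest at 0 h, and so were those of the germ cell markers. The part of the cells behind these markers in the 0 h-only regions was not tested.

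Of the 5 strongest 0 h-only regions, 3 were at synaptonemal complex genes. Sycp3 had one 2563 bp upstream (chr10:88456737-88457147) with 229 and 248 at 0 h and a peak of 80 in 1 of the 18 h libraries. It had another 957 bp inside the gene, in an intron, with 109 and 112 at 0 h and 69 in the same 18 h library. Together with regions at 1411 bp (100 and 115) and 9891 bp upstream (70 and 49), Sycp3 went from 5 peaks in each 0 h library to between 1 and 3 later. Syce3, of the central element, had a 0 h-only region downstream of the gene at chr15:89380250-89380582, with 160 and 147 at 0 h and no peak later. Hfm1 had one in an intron with 131 and 143 at 0 h and 48 in 1 of the 48 h libraries, and Spdya one 995 bp inside the gene with 134 and 116 at 0 h, 55 in 1 of the 18 h and 61 in 1 of the 48 h libraries. In number of peaks, 4 of the 30 genes (13.3%) had more in both 0 h libraries than in any later library, where 38.4% of all genes did, and these were Sycp1, Sycp3, Syce3 and Mybl1. The count was 10 without library 2 of 0 h, and 1 when an equal number of peaks was taken from each library or when peaks were limited to the gene and 1000 bp around its start.

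Regions at 120 h only were rare, with 5 of 83 (6.02%) against 2.49% of all regions. One was 9485 bp upstream of Msh5 (chr17:35056030-35056530), with 145 and 60 in the 120 h libraries and no peak in the others. Hormad2 had one in an intron with 40 and 35. The other 3 were in Tex14 introns at copies of the U3 small nucleolar RNA gene, with 142 and 102 at Rnu3b1, 78 and 63 at Rnu3b2 and 59 and 62 at Rnu3b4. The Rnu3b1 region also had a peak in 1 library each of 0 h (127), 18 h (83) and 48 h (73), so its 0 h peak was above 1 of its 120 h values. The Tex14 gene holds several such copies. How reads that match more than 1 copy were handled was not examined, so the values of these regions are uncertain.

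The same copies gave both directions among the 22 tested regions away from the starts, of which 3 were relatively higher and 3 lower at 120 h. A region at Rnu3b3 with 168 and 170 at 0 h and 196 and 121 at 120 h was relatively higher (0.76, SE 0.21, adjusted p = 0.0144), and its neighbour at Rnu3b3, with 373 and 228 at 0 h and 105 and 64 at 120 h, lower (-0.94, SE 0.28, adjusted p = 0.018), as was 1 at Rnu3b1 (-1.01, SE 0.33, adjusted p = 0.0295). The other 2 that were higher were the region of Prdm9 described above (0.58, SE 0.21, adjusted p = 0.0438) and the start of Rae1 downstream of Spo11 (0.77, SE 0.21, adjusted p = 0.0132). The third lower region, assigned to Syce2 but lying at the start of Gcdh, a mitochondrial dehydrogenase gene, had 377 and 389 before RA, then 92 and 123 (18 h), 92 and 88 (48 h) and 90 and 56 (120 h). It had the lowest relative change of the 48 regions at 120 h against 0 h, -1.54 (SE 0.20, adjusted p = 0.00025), and changed by -0.84 against 48 h (SE 0.20, adjusted p = 0.0234, where 7.45% of all regions were lower), while the start of Syce2 itself was at 0.41. The region that joined Smc1b in being relatively high at 48 h lay 5814 bp upstream of Sycp2, at the starts of Fam217b and Ppp1r3d (0.97, SE 0.21, adjusted p = 0.0178).

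**Figure D4:**
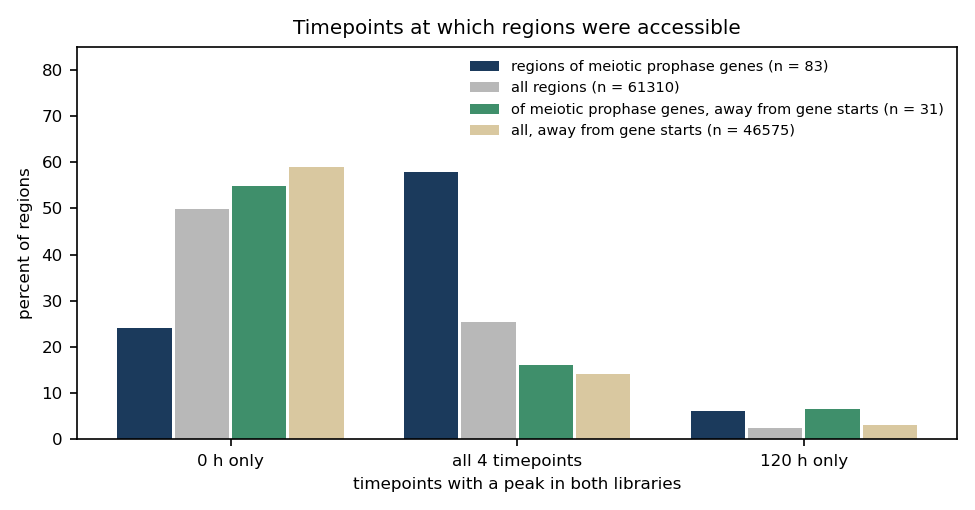
Percent of regions (y axis) that counted at 0 h only, at all 4 timepoints and at 120 h only (x axis), for the regions of meiotic prophase genes and for all regions, with and without the regions at gene starts. Over all regions the meiotic prophase genes have 57.8% at all 4 timepoints against 25.3%, and away from gene starts the bars lie close together, at 54.8% and 59.0% for 0 h only.

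Other genes of the pathway were described by the same counts. Of 37 other meiotic prophase genes, 22 were in the table and 18 had a tested start region, of which 17 were lower at 18 h, 17 at 48 h and 5 at 120 h as deposited, where 96.1%, 96.8% and 31.8% of all start regions were. Relative to the median region, 9 of the 18 were higher and 1 lower at 120 h, with a median of 0.45, against 29.6%, 8.42% and a median of 0.32 for all start regions. The same shares apply to the lists that follow. Of 15 regulators of meiotic entry, 10 had a tested start region, of which 8, 9 and 3 were lower at 18, 48 and 120 h as deposited, and 5 were relatively higher at 120 h with a median of 0.68. The start of Stra8, the RA-induced gene that drives meiotic entry, had 123 and 159 before RA, then 133 and 192 (18 h), 165 and 168 (48 h) and 202 and 182 (120 h), which was not a called change as deposited (0.46, adjusted p = 0.315) and was relatively higher at 120 h (1.35, adjusted p = 0.000897). Of 14 genes whose products repress meiotic genes, E2f6 and Mga among them, 11 had a tested start region, of which 11, 10 and 2 were lower at 18, 48 and 120 h and 4 were relatively higher at 120 h, with a median of 0.35. The comparisons against 0 h share the 0 h libraries, and these counts are descriptions.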

How the data were processed

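ATAC-seq libraries of sorted PIWIL2-eGFP germ cells were analysed from the peak table deposited for the 8 samples. The authors aligned reads to mm10 with BWA, removed duplicates, reduced libraries to an equal number of tags, called peaks per library with MACS2 2.1.0 and deposited, for each peak, 2 measures of signal (tag coverage in short bins), at its summit and as a mean over the peak, with genes assigned within 10 kb. Original depth per library is not in the table, and the lowest summit value was 24 or 25. The versions BWA 0.7.12 and bedtools 2.25.0 were taken from the submitters' processing notes. The signal is relative, so a change shared by all regions cannot be told apart from a change in background.

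Peaks were merged where they overlapped by 1 bp. Coordinates are mm10 (GRCm38), and gene features are from GENCODE vM21. Log2 summit values (the highest peak of a library in a region) of 15536 regions called in every library were tested with limma 3.58.1 (R 4.3.3; 4 timepoints, no block, Benjamini-Hochberg adjustment over all 15536 regions, threshold 0.05), as deposited and after centring each library on its median. The limma fit was checked on simulated data. These had independent noise and no shift shared by all regions of a library, so the check does not cover such shifts. As deposited, limma gave all regions the same SE of 0.37, so the spread was taken as known from all regions together. Shifts shared by a whole library are not independent between regions. The as-deposited p-values and counts of called regions can therefore overstate the evidence. Peaks, presence and motifs were counted in Python 3.11.15 with pandas 2.3.3.

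The gene list, roles, comparison lists and rules were chosen with earlier results of these data known. Values in every library are given for the starts of the 6 genes with the largest relative rises and the 6 with the largest falls at 120 h, every start called relative to the median region, the 5 strongest regions of those at 0 h only and of those at 120 h only, ranked by the lower of both libraries, and genes without a peak in some library. Values for Mei4, Msh4, Dmc1, Stra8, Rad21l, Prdm9, Spo11, Mei1, Rec114, Rnf212, Majin, Terb1 and the Gcdh and Rnu1a1 regions were added after they were seen.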

Additional observations from a re-analysis of the deposited data

How the results depend on the processing

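Counts of changed regions depended on the scale, as nearly all regions fell together. Of the meiotic prophase gene regions lower than at 0 h (47, 45 and 20 at 18, 48 and 120 h as deposited), median centring left 0, 0 and 3, quantile normalization 0, 0 and 2, and median centring with a replicate block 0, 0 and 3. With regions that lack a peak in some libraries set to the lowest summit value, 70 were lower at 48 h and 44 at 120 h, and 1, 2 and 10 after centring. The 10 regions higher at 120 h than at 48 h became 2 after centring, 0 after quantile normalization, 2 with only the libraries of both timepoints, and 2 and 1 with the lowest value filled in. The 8 relatively high starts at 120 h became 2 after quantile normalization and 2 with the lowest value filled in and centring. The 20 regions at 0 h only became 13 for summit values of at least 50 and 4 for an equal number of the highest peaks, and the 4 genes with most peaks at 0 h became 1 for an equal number of peaks and 1 within the gene and 1000 bp.

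Leaving out 1 library at a time gave 23 to 48 lower regions at 18 h, 29 to 46 at 48 h and 10 to 24 at 120 h, 0 to 22 higher at 120 h than at 48 h, 14 to 38 regions at 0 h only and 4 to 10 genes with most peaks at 0 h. The same with centring, chosen after seeing the data, gave 2 to 8 relatively high starts. The 48 regions and 30 genes at all 4 timepoints were 48 and 30 without any 1 library.

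After centring, the deviations of same-numbered libraries from the group means correlated between -0.224 and 0.248. Centring removes a shift common to a whole library, so these correlations cannot show whether same-numbered libraries shared one. With the replicate block, 44, 45 and 19 regions were lower at 18, 48 and 120 h, 6 in place of 10 were higher at 120 h than at 48 h, or 2 after centring, and 8 starts were relatively high. No alternative reversed the sign of the relative changes at 120 h against 0 h that were compared, which were those of the 8 starts and of the Gcdh region. Between the scales, signs did differ. As deposited, 24 of the 26 starts were lower at 120 h than at 0 h, and after centring 18 of the 26 were higher. Presence of a peak depends on the calling threshold and on signal over background, and a missing peak is not closed chromatin.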
